A study of Mus musculus with 6 samples.

Results

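Myelin and oligodendrocyte lineage genes were examined in the brains of mice fed a diet with PLDP, a decomposition product of porcine liver made with protease. The 40 genes were chosen by symbol as markers of oligodendrocyte precursors, of newly formed oligodendrocytes and of myelinating oligodendrocytes, and each symbol matched 1 Ensembl identifier among the 60354 features listed for every mouse. Brain RNA came from male C57BL/6NCrSlc mice that were 16 weeks old when the diets began. Both feeds were based on modified AIN-93M and were given for 16 weeks. PLDP, at 20% of the feed, was present only for the PLDP mice, and the calories of the control feed had been adjusted. The PLDP feed also held less casein and soybean oil and more cystine and α-cornstarch, which cannot be told apart from PLDP here. All mice then went through the same behavioral tests, during which no PLDP was given, and RNA was taken from the whole brain on the day after the last test. Libraries of polyadenylated RNA were sequenced for 3 mice on the control feed (numbered 2, 5 and 10) and for 3 on PLDP (numbered 17, 22 and 26), with 18797061 to 23938729 counts on genes per mouse. Pooling all brain regions limits these samples, since regions differ in how much myelin they hold and a change in 1 region can be diluted by the others.

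Oligodendrocytes wrap axons in myelin, a stack of tightly packed membranes rich in lipid that speeds conduction and supports the axon. They arise from precursor cells that carry Pdgfra and Cspg4, pass through a short stage marked by Gpr17, Enpp6 and Bcas1, and then switch on the genes of the myelin sheath. Sox10 and Olig2 act through the whole lineage, and Myrf drives the final step to myelination. Precursors persist in the adult brain, and new oligodendrocytes still form there.

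The genes of mature oligodendrocytes tended to be lower in PLDP mice, by small amounts, as did the transcription factors of the whole lineage. None of the 2 precursor genes and 3 newly formed genes passed the test, and differences between stages were not tested. Of the 39 genes that passed the filter on low counts, edgeR's quasi-likelihood test called 14 lower on PLDP, using an unadjusted p under 0.05, and 0 higher. Over all 18580 features tested, 3.69% were called lower and 4.91% higher in the same fit, 8.6% in either direction. Among the 12039 features whose control CPM lay within the range of these genes, 4.2% were called lower. CPM here is a gene's count relative to its library's total after TMM scaling, which sets the libraries to a common size. After Benjamini-Hochberg adjustment over all features, 0 of the 39 genes passed 0.05 in edgeR, DESeq2 or limma voom (0.0323% of all features passed in edgeR), and the smallest adjusted p was 0.214. No called gene changed more than 2-fold, and their median log2 fold change was -0.14. Over the 39 genes the median log2 fold change was -0.076, with 32 genes below 0, against a median of -0.00062 over all features, of which 50.2% were below 0. The lower count rested partly on control mouse 5, which had the highest control value in 29 of the 39 genes. Without it 6 genes were called lower and 2.72% of all features. Without PLDP mouse 17, 17 genes were called lower and 5.69% of all features, with Bcas1, Qdpr, Mobp, Olig1 and Opalin gained and Ugt8a and Tmem88b lost.

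**Figure D1:**
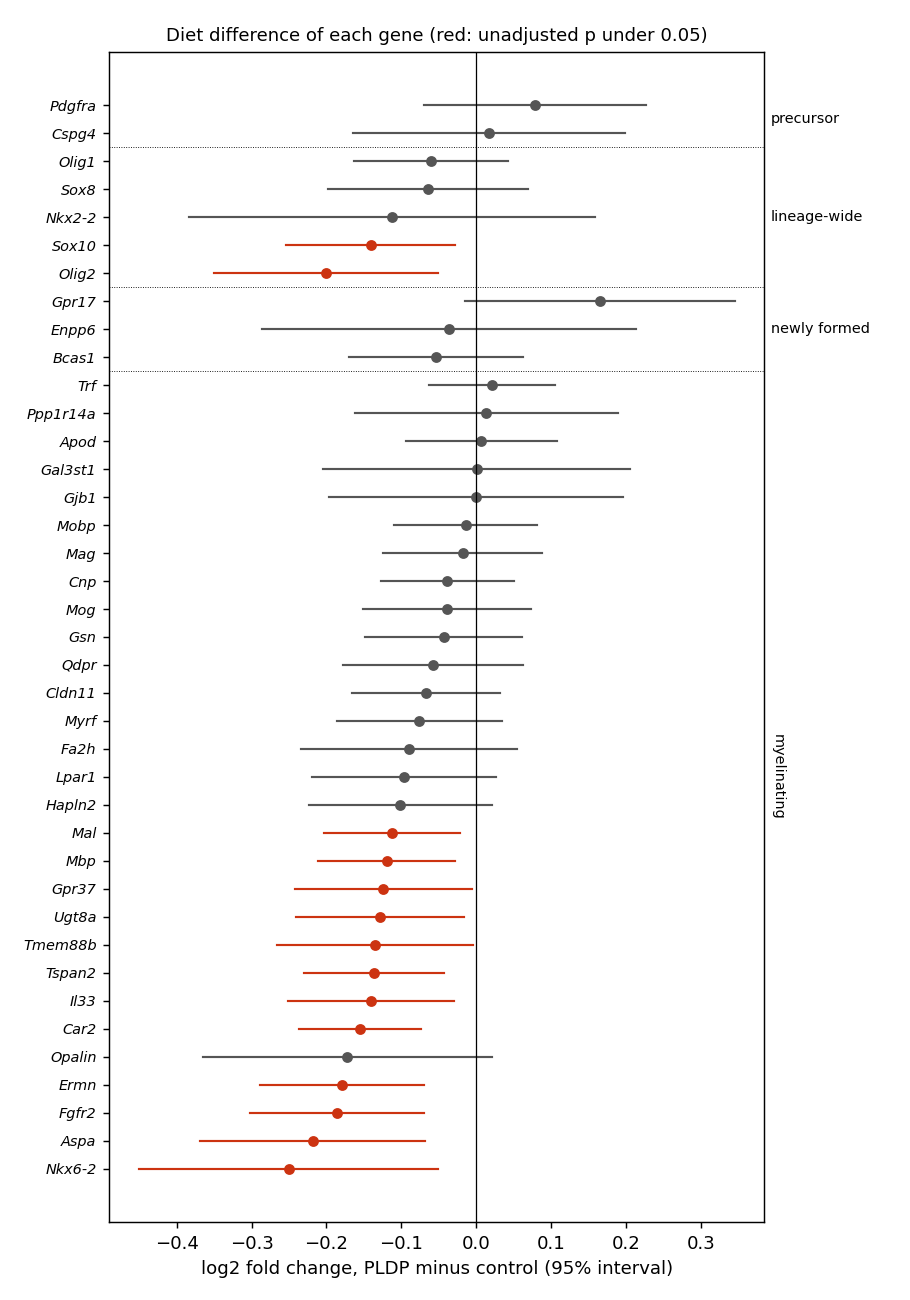
The log2 fold change of each of the 39 tested genes (PLDP minus control, horizontal axis) is plotted with its 95% interval, grouped by lineage stage, with genes at an unadjusted p under 0.05 in red. All 14 red genes lie below 0, 12 of them among the myelinating genes and 2 among the lineage-wide transcription factors.

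In bulk RNA a lower value can come from fewer cells of a type or from less RNA per cell, and these cannot be told apart here. The mice within the PLDP group also differed. PLDP mouse 22 was below all 3 control mice in 27 of the 39 genes and above all of them in 1. PLDP mouse 26 was below in 24 and above in 3, and PLDP mouse 17 was below in 17 and above in 10. In 10 genes every PLDP mouse was below every control mouse, against 6.9% of all features, and in 0 genes above, against 7.29%. Permuting 3 mice against 3 allows no two-sided exact p below 0.1 for 1 gene, so the p-values given are those of the edgeR fit across all features.

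**Figure D2:**
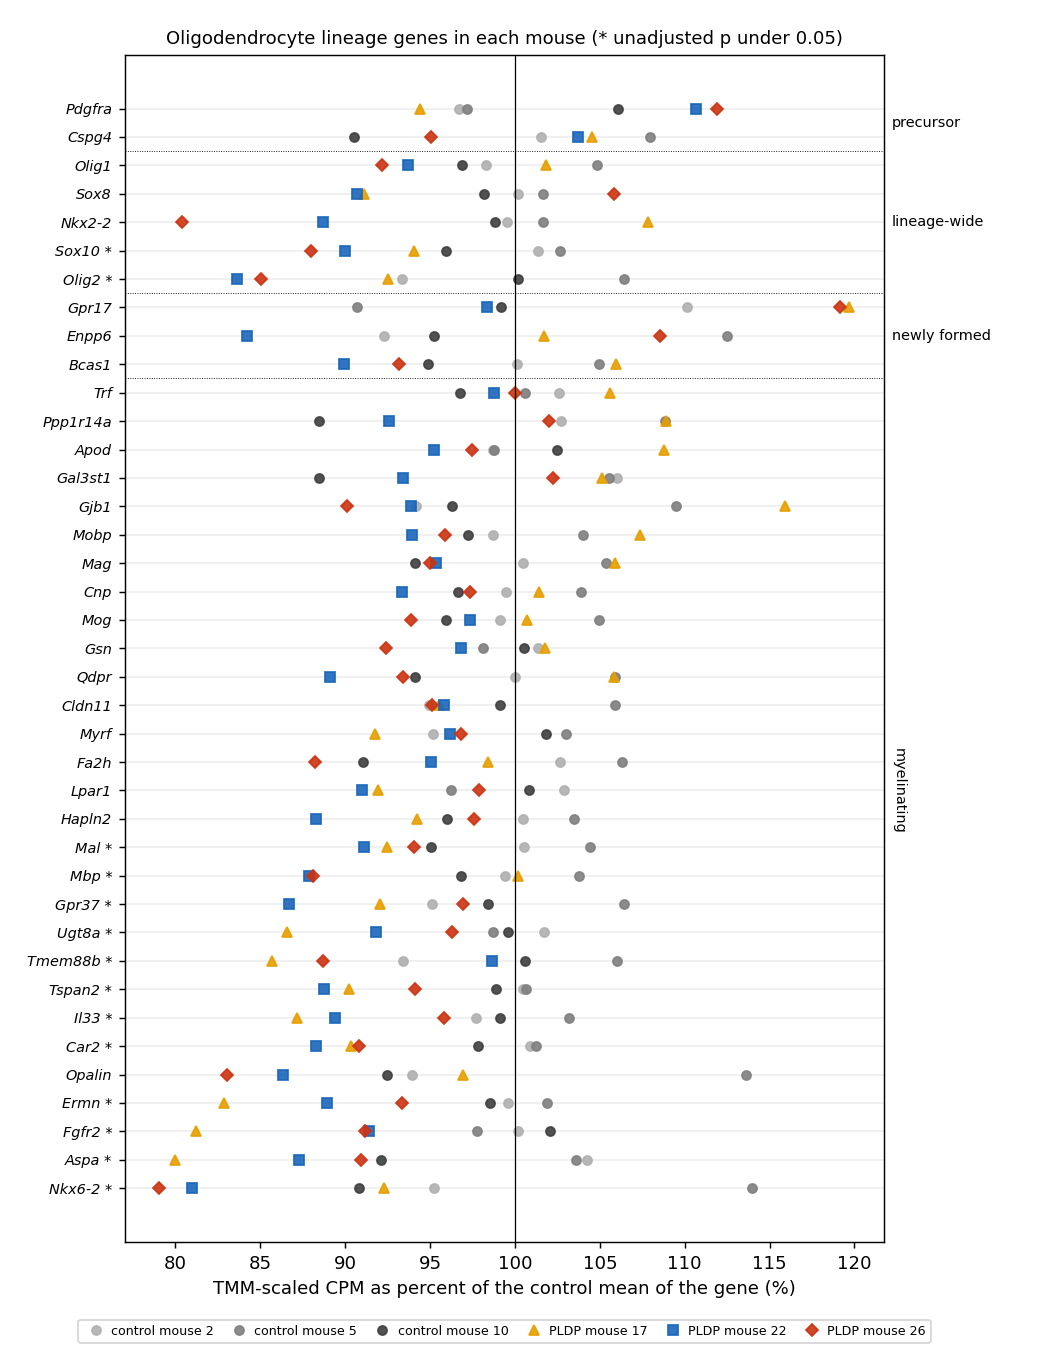
Each point is 1 mouse, and the horizontal axis gives its CPM as a percent of the gene's mean in control mice, with genes grouped by stage and an asterisk at an unadjusted p under 0.05. In Mbp, Mobp, Mag and Gjb1 the triangle of PLDP mouse 17 lies among or above the control mice, whereas in Ermn, Aspa, Fgfr2, Ugt8a, Il33 and Tmem88b it is the lowest of all mice.

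Per kilobase of exon, the genes ran over a wide range of levels in control mice. Mbp, which encodes myelin basic protein, the protein that zips the inner faces of the myelin membrane together, was highest at 405 CPM per kilobase. Mobp, another basic protein of compact myelin, followed at 160, and Qdpr, which encodes a reductase that regenerates tetrahydrobiopterin, at 130. Trf (transferrin, the iron carrier) had 121, Cnp (an enzyme of the noncompact myelin cytoplasm) 96.3, and Apod (apolipoprotein D, a lipid carrier) 86.0. Bcas1 and Cldn11 had 63.2 each and Mal 63.7, which did not differ beyond their spread. The precursor markers were near the low end, with 3.49 CPM per kilobase for Pdgfra and 1.34 for Cspg4. Carns1, the gene of carnosine synthase, was the single gene that did not pass the filter, with 4, 1 and 2 counts in control mice and 2, 8 and 1 in PLDP mice, too few to compare. Exons of another annotated gene on its strand, AC109138.8, overlap it and held 105 counts.

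**Figure D3:**
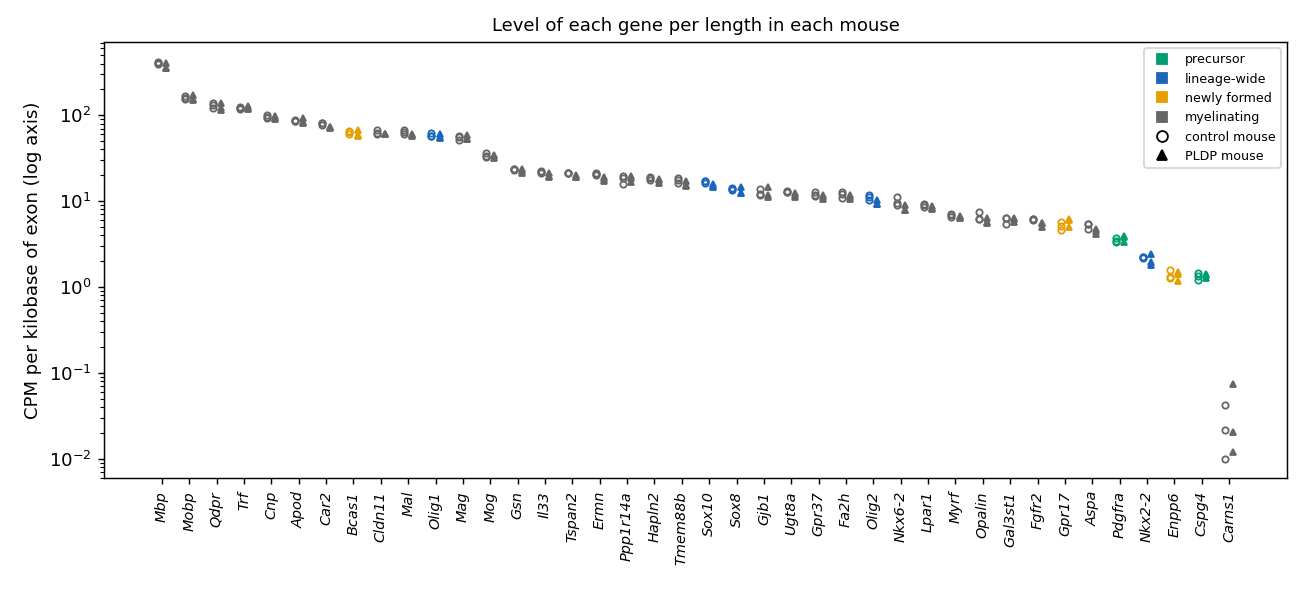
CPM per kilobase of exon (vertical log axis) is shown for all 40 genes in each mouse, ordered by their mean, with open circles for control mice, triangles for PLDP mice and colors for stages. Mbp stands highest and Carns1 lowest, and for most genes the mice lie close together relative to the distances between genes.

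The precursor stage was represented by 2 genes, and neither passed the test. Pdgfra, the receptor for platelet-derived growth factor that keeps precursors dividing, had 33.9, 34.0 and 37.2 CPM in control mice 2, 5 and 10 and 33.1, 38.7 and 39.2 CPM in PLDP mice 17, 22 and 26. PLDP mouse 17 was the lowest and the other two PLDP mice the highest of the 6. Pdgfra thus had a log2 fold change of 0.08 (95% interval -0.07 to 0.23, unadjusted p = 0.277 in edgeR). Without PLDP mouse 17 Pdgfra had 0.15 and was called higher. Cspg4, the NG2 proteoglycan on the precursor surface, had 16.2, 17.2 and 14.5 CPM in control mice and 16.7, 16.6 and 15.2 in PLDP mice, values that overlapped fully. Its log2 fold change was 0.02 (interval -0.16 to 0.20, unadjusted p = 0.845 in edgeR). Both genes are also expressed outside the lineage, Pdgfra in fibroblasts and Cspg4 in pericytes. Of 8 markers of mural cells 1 was called higher and 0 lower, and of 8 markers of meningeal fibroblasts 0 were called.

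The 3 genes of newly formed oligodendrocytes overlapped between the diets. Gpr17, a receptor that holds cells at the stage before myelination, had 29.3, 24.1 and 26.4 CPM in control mice and 31.8, 26.2 and 31.7 in PLDP mice. PLDP mice 17 and 26 were above all control mice, and PLDP mouse 22 lay among them. Its log2 fold change of 0.17 was the highest of the 39 genes (interval -0.01 to 0.35, unadjusted p = 0.0687 in edgeR). Gpr17 was called higher with no filter on low counts and without control mouse 2 or PLDP mouse 22. Its log2 fold change ran from 0.099 to 0.26 when 1 mouse was left out. Bcas1, a protein found in early myelinating cells, had 238.9, 250.4 and 226.4 CPM in control mice and 252.7, 214.6 and 222.3 in PLDP mice. The highest and the 2 lowest of these values were all in PLDP mice, and the log2 fold change was -0.05 (interval -0.17 to 0.06, unadjusted p = 0.341). Without PLDP mouse 17 Bcas1 had -0.13 and was called lower. Enpp6, a choline phosphodiesterase that marks the onset of myelination, had 8.23, 10.0 and 8.49 CPM in control mice and 9.07, 7.50 and 9.67 in PLDP mice. Its log2 fold change was -0.04 (interval -0.29 to 0.21, unadjusted p = 0.763).

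Among the 5 transcription factors of the whole lineage, Olig2 and Sox10 were lower in PLDP mice and the other 3 did not pass the test, with a median log2 fold change of -0.11 over the 5. Olig2, the factor that specifies the lineage (ENSMUSG00000039830, chromosome 16 of GRCm38 from 91225457 to 91228677), had 26.0, 29.6 and 27.9 CPM in control mice. The PLDP mice had 25.8, 23.3 and 23.7 CPM, each below every control mouse, with PLDP mouse 17 just under control mouse 2. Olig2 fell by 12.9%, a log2 fold change of -0.20 (standard error 0.071, unadjusted p = 0.0119, adjusted p = 0.434 in edgeR). Sox10, which activates many myelin genes (ENSMUSG00000033006, chromosome 15 from 79154908 to 79165240), had 51.9, 52.6 and 49.1 CPM in control mice. On PLDP it had 48.2, 46.1 and 45.1 CPM, and again the groups did not overlap. Sox10 fell by 9.32%, a log2 fold change of -0.14 (standard error 0.054, unadjusted p = 0.0178, adjusted p = 0.456), and its call was lost without control mouse 2, control mouse 5 or PLDP mouse 26, whereas that of Olig2 was lost only without control mouse 5. Olig1, the neighbor of Olig2 on chromosome 16, had 125.6, 133.9 and 123.8 CPM in control mice and 130.1, 119.7 and 117.8 in PLDP mice. The groups overlapped, with a log2 fold change of -0.06 (interval -0.16 to 0.04, unadjusted p = 0.236). Sox8, a close relative of Sox10, and Nkx2-2, which acts at the start of differentiation, had log2 fold changes of -0.06 and -0.11 with intervals that held 0. An antisense gene, 2810468N07Rik, overlaps exons of Sox8 and held 3596 counts.

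Among the genes of the myelinating stage, 2 more were transcription factors. Nkx6-2, a homeobox factor of maturing oligodendrocytes, had 17.9, 21.4 and 17.1 CPM in control mice and 17.3, 15.2 and 14.9 in PLDP mice. PLDP mouse 17 lay just above control mouse 10, so the groups overlapped. The log2 fold change of -0.25 was the lowest of the 39 genes (standard error 0.095, unadjusted p = 0.0171, adjusted p = 0.45 in edgeR). It ran from -0.32 to -0.14 when 1 mouse was left out, and without control mouse 5 Fgfr2 (-0.20) was lower than Nkx6-2. The call was lost without control mouse 5, PLDP mouse 22 or PLDP mouse 26, and exons of Inpp5a on the opposite strand, which held 16625 counts in all, overlap Nkx6-2. Myrf had 55.8, 60.3 and 59.7 CPM in control mice and 53.7, 56.3 and 56.7 in PLDP mice, with control mouse 2 inside the PLDP values. Myrf had a log2 fold change of -0.08 (interval -0.19 to 0.03, unadjusted p = 0.165).

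Promoter sequence was read for members on both sides of the test, since the transcription factors above bind near genes of the sheath. Of the 40 genes, 30 had a RefSeq promoter on GRCm38.p6, running from 250 bases before to 50 bases after a start site. The windows of Olig2, Ermn and Tspan2, which were lower in PLDP mice, and of Mobp, which did not pass the test, are given 5′ to 3′ on the strand of the gene. Capitals mark every match to ACAAAG or ACAATG (letters bound by Sox proteins such as Sox10), CAGCTG or CATCTG (E-boxes, the kind of site that Olig2 binds) and CTGGCAC or CTGGTAC (letters bound by Myrf), searched on both strands, with overlaps between motifs allowed.
Olig2 (chr16:91225300-91225599, plus strand): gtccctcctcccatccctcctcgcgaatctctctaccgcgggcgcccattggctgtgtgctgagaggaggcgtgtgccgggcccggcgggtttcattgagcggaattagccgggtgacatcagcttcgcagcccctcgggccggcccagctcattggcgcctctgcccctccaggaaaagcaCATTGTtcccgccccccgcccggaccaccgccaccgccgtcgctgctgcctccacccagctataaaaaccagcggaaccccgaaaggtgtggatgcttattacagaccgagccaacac
Ermn (chr2:58052815-58053114, minus strand): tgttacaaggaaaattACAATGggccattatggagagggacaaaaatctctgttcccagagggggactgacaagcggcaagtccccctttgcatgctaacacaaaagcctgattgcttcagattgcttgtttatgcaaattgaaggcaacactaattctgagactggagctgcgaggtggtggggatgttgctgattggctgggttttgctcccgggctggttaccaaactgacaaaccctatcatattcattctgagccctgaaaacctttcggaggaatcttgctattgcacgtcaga
Tspan2 (chr3:102734520-102734819, plus strand): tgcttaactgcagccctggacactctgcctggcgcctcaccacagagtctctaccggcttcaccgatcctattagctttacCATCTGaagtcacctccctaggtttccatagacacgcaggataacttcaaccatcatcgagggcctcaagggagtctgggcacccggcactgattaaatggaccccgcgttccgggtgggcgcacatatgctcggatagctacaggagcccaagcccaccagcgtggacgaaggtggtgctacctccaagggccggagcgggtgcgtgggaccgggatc
Mobp (chr9:120149492-120149791, plus strand): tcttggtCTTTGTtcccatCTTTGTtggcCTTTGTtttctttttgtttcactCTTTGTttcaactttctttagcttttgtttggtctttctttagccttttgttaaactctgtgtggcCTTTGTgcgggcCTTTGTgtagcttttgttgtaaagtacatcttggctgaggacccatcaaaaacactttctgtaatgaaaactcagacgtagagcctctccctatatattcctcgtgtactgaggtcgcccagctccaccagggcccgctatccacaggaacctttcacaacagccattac
Olig2 held 1 match, CATTGT, the reverse complement of ACAATG, beginning 68 bases before the RefSeq start. That start lies 93 bases into the gene as GENCODE M21 places it, so the match lies within the GENCODE gene. Ermn, whose RefSeq and GENCODE starts coincide, held 1 match, ACAATG, at 234 bases before. Tspan2 held CATCTG at 169 bases before the RefSeq start, which is 241 bases into the GENCODE gene, so this match also lies within it. Mobp held 6 matches, all CTTTGT, the reverse complement of ACAAAG, of which the first began 243 bases before the RefSeq start, itself 35 bases into the GENCODE gene. Of the 30 windows, 11 had the same start in both annotations. Over 1 window per gene, a Sox match was present in 12 of the 30 genes and in 3 of the 11 called genes with a window, against 28.6% of all 32851 promoter windows. An E-box match was present in 14 of the 30 genes and in 6 of the 11, against 30.6% of all windows. A Myrf match was present in 6 of the 30 and in 0 of the 11, against 7.10%. These counts describe letters in a short window and say nothing of binding.

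The structural genes of the sheath formed the largest role, with 13 genes, of which 4 were lower (Mbp, Mal, Ermn and Tspan2) and 0 higher. All 13 had log2 fold changes below 0, down to -0.18, although that of Gjb1 was within 0.01 of 0 and turned above 0 under upper-quartile scaling. Mbp (ENSMUSG00000041607, chromosome 18 from 82475146 to 82585637) had 3412, 3564 and 3323 CPM in control mice 2, 5 and 10 and 3439, 3016 and 3025 CPM in PLDP mice 17, 22 and 26. PLDP mouse 17 lay among the control mice, and the other two were below all of them. Mbp fell by 7.95%, a log2 fold change of -0.12 (standard error 0.043, unadjusted p = 0.0138, adjusted p = 0.448 in edgeR). Without PLDP mouse 17 it was -0.18, and the call was lost without control mouse 5, PLDP mouse 22 or PLDP mouse 26. Mbp held between 41.2% and 43.3% of the summed CPM of the 40 genes in every mouse.

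Ermn, which encodes ermin, a cytoskeletal protein that appears late in myelination (ENSMUSG00000026830, chromosome 2 from 58045113 to 58052864, its promoter shown above), had 74.6, 76.3 and 73.8 CPM in control mice. Values on PLDP were 62.0, 66.6 and 69.9 CPM, all below the control mice, and here PLDP mouse 17 was the lowest. Ermn fell by 11.6%, a log2 fold change of -0.18 (standard error 0.052, unadjusted p = 0.00309, adjusted p = 0.306 in edgeR). Tspan2, a tetraspanin of the myelin membrane (ENSMUSG00000027858, chromosome 3 from 102734529 to 102801513), had 101.7, 101.8 and 100.1 CPM in control mice, a spread of 0.995 (SD). Its values on PLDP were 91.3, 89.8 and 95.2 CPM, clear of the control mice. Its log2 fold change was -0.14 (standard error 0.044, unadjusted p = 0.00694, adjusted p = 0.367). Mal, a proteolipid that sorts membrane to the sheath, had 177.8, 184.7 and 168.1 CPM in control mice and 163.6, 161.2 and 166.3 in PLDP mice. The groups were separated by a narrow gap between control mouse 10 and PLDP mouse 26, with a log2 fold change of -0.11 (standard error 0.043, unadjusted p = 0.0187, adjusted p = 0.46) whose call was lost without control mouse 2, control mouse 5 or PLDP mouse 22.

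The other 9 structural genes did not pass the test. Mobp had 1080, 1138 and 1064 CPM in control mice and 1175, 1028 and 1049 in PLDP mice, and PLDP mouse 17 was the highest of the 6. The log2 fold change of Mobp was -0.01, with an interval of -0.11 to 0.08 (unadjusted p = 0.766 in edgeR), and without PLDP mouse 17 it was -0.075 and was called lower. Cnp had 348.6, 364.1 and 338.8 CPM in control mice and 355.4, 327.3 and 341.3 in PLDP mice, which overlapped (log2 fold change -0.04, interval -0.13 to 0.05, unadjusted p = 0.373). Mog, a surface glycoprotein of the outermost myelin layer, had 57.9, 61.3 and 56.0 CPM in control mice and 58.8, 56.9 and 54.8 in PLDP mice, also overlapping. Mog had a log2 fold change of -0.04 (interval -0.15 to 0.07, unadjusted p = 0.475). Mag, the adhesion protein between the sheath and its axon, had -0.02 (interval -0.12 to 0.09), and Cldn11, which seals the layers with tight junctions, -0.07 (interval -0.17 to 0.03). Opalin, a membrane glycoprotein of mature cells, had -0.17 with unadjusted p = 0.0777 and was called lower with no filter on low counts and without control mouse 10 or PLDP mouse 17. Without control mouse 5 the log2 fold change of Opalin was -0.07. Hapln2, which links the matrix at the nodes of Ranvier, had -0.10, and its interval also held 0. Whether Mbp and Mobp differ in their change was not tested.

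Of the 3 enzymes of myelin lipids that act in myelinating cells, Ugt8a was lower. Ugt8a makes galactosylceramide, the main glycolipid of myelin, and had 59.0, 57.3 and 57.8 CPM in control mice. The PLDP mice had 50.3, 53.3 and 55.9 CPM, below every control mouse, with PLDP mouse 17 lowest. Its log2 fold change was -0.13 (standard error 0.053, unadjusted p = 0.0274, adjusted p = 0.507 in edgeR), and the p was above 0.05 with DESeq2 and without control mouse 2, control mouse 10 or PLDP mouse 17. Fa2h, which adds the hydroxyl group to myelin fatty acids, had a log2 fold change of -0.09 (interval -0.23 to 0.06, unadjusted p = 0.209). Gal3st1, which turns galactosylceramide into sulfatide, had 12.3 ± 1.24 CPM in control mice and 12.4 ± 0.751 in PLDP mice (SD, n = 3 each), with an interval from -0.20 to 0.21.

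Metabolic enzymes of mature oligodendrocytes held the smallest p of all 39 genes. Car2, carbonic anhydrase 2, which sets the acid-base balance of the cells (ENSMUSG00000027562, chromosome 3 from 14886273 to 14900770), had 194.9, 195.6 and 189.0 CPM in control mice. The PLDP mice had 174.6, 170.5 and 175.5 CPM, a tight group well below the control mice. Car2 fell by 10.2%, a log2 fold change of -0.16 (standard error 0.039, unadjusted p = 0.000957, adjusted p = 0.214 in edgeR). Car2 is also expressed outside the oligodendrocyte lineage, and the part of other cells in its values was not tested. Aspa, the enzyme that releases acetate from N-acetylaspartate for lipid synthesis (ENSMUSG00000020774, chromosome 11 from 73304992 to 73329596), had 32.0, 31.8 and 28.3 CPM in control mice. In the PLDP mice it had 24.5, 26.8 and 27.9 CPM, so that PLDP mouse 26 came close to control mouse 10 without reaching it. Aspa fell by 13.9%, with a log2 fold change of -0.22 (standard error 0.071, unadjusted p = 0.00698, adjusted p = 0.368). Qdpr had 233.2, 247.1 and 219.5 CPM in control mice and 246.9, 207.9 and 217.9 in PLDP mice, which overlapped (log2 fold change -0.06, interval -0.18 to 0.06, unadjusted p = 0.329). Without PLDP mouse 17 the log2 fold change of Qdpr was -0.13, and it was called lower.

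Among the secreted proteins, Il33 was lower and the carriers were not. Il33, an alarm cytokine kept in the nucleus of mature oligodendrocytes and of some astrocytes, had 62.0, 65.5 and 62.9 CPM in control mice. The PLDP mice had 55.3, 56.8 and 60.8 CPM, below all control mice. Il33 fell by 9.19%, a log2 fold change of -0.14 (standard error 0.052, unadjusted p = 0.0158, adjusted p = 0.448 in edgeR), and the call was lost only without control mouse 5. Trf had 412.7, 404.6 and 389.1 CPM in control mice and 424.7, 397.2 and 402.1 in PLDP mice, and Apod had 218.8, 218.9 and 227.1 CPM against 241.1, 211.0 and 216.0. Both overlapped between the diets, with log2 fold changes of 0.02 (interval -0.06 to 0.10) and 0.01 (interval -0.09 to 0.11). Trf is also made by the choroid plexus, and of 10 choroid plexus markers 2 were called lower (Ttr and Folr1). Of these 10 markers, 9 were below 0, with a median log2 fold change of -0.17. Their summed CPM was 608.6 in PLDP mouse 17, the mouse with the highest Trf, and between 718.1 and 833.4 in the other mice. The part of choroid plexus RNA in the Trf values was not tested.

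Of the 3 receptors of myelinating cells, Fgfr2 and Gpr37 were lower. Fgfr2, a fibroblast growth factor receptor that promotes the thickness of myelin (ENSMUSG00000030849), had 63.6, 62.1 and 64.8 CPM in control mice and 51.6, 58.0 and 57.9 in PLDP mice. The groups did not overlap, and PLDP mouse 17 was the lowest. Fgfr2 fell by 12.1%, a log2 fold change of -0.19 (standard error 0.055, unadjusted p = 0.00375, adjusted p = 0.318 in edgeR). Its annotation shares exons on the same strand with Ctbp2, which held 4469 counts in all against 7602 for Fgfr2, so reads may have been divided between the 2 genes. Fgfr2 is also an astrocyte gene, and of 12 astrocyte markers 2 were called lower (Aqp4 and Fgfr3) and the median log2 fold change was -0.011. Gpr37, an orphan receptor that restrains oligodendrocyte maturation, had 69.6, 77.9 and 72.0 CPM in control mice and 67.4, 63.4 and 70.9 in PLDP mice. PLDP mouse 26 lay above control mouse 2, and the log2 fold change was -0.12 (standard error 0.056, unadjusted p = 0.0408, adjusted p = 0.559), with p above 0.05 in DESeq2 and without control mouse 5, control mouse 10 or PLDP mouse 22. Lpar1, a receptor for lysophosphatidic acid, had a log2 fold change of -0.10 (interval -0.22 to 0.03).

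The remaining called gene was Tmem88b, a membrane protein gene with 56.6, 64.2 and 60.9 CPM in control mice and 51.9, 59.7 and 53.7 in PLDP mice. PLDP mouse 22 lay among the control mice, and this call was the weakest of the 14 (log2 fold change -0.13, unadjusted p = 0.0447, adjusted p = 0.565 in edgeR). It was lost in DESeq2, under upper-quartile scaling, and in the fits without control mouse 5, control mouse 10, PLDP mouse 17 or PLDP mouse 26. Ppp1r14a, an inhibitor of myosin phosphatase, and Gsn, the actin-severing protein gelsolin, had log2 fold changes of 0.01 and -0.04 with intervals that held 0. Of the 14 called genes, 5 kept an unadjusted p under 0.05 in all 13 alternative analyses, namely Car2, Ermn, Tspan2, Aspa and Fgfr2. All 14 had a log2 fold change below 0 in each of the 13.

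Further genes of the lineage outside the 40 were counted in the same fit, to be read against the 3.69% lower and 4.91% higher over all features. Of 15 other precursor genes, 15 were tested and 0 were called in either direction, with a median log2 fold change of 0.0055. Of 14 other genes of newly formed cells, 13 were tested and 1 was called, Prom1, which was higher with a log2 fold change of 0.22. Of 48 other genes of myelinating cells, 47 were tested, 5 were called lower and 2 higher, and 34 were below 0 with a median of -0.038. The lower genes were Hhip, a hedgehog-binding protein (log2 fold change -0.29), Serpinb1a (-0.26), Pls1 (-0.23), Anln, an actin-bundling protein of the myelin septin scaffold (-0.17), and Omg, an oligodendrocyte glycoprotein (-0.13). The higher genes were Gamt, an enzyme of creatine synthesis (0.24), and Cercam (0.21). Their adjusted p in edgeR was 0.405 or above. The summed CPM of these other myelinating genes was 5608, 5571 and 5451 in control mice and 5628, 5242 and 5306 in PLDP mice, so PLDP mouse 17 was the highest and the other two the lowest.

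Summed over the 30 myelinating genes, CPM was 7338, 7636 and 7159 in control mice and 7425, 6700 and 6790 in PLDP mice, so PLDP mice 22 and 26 lay below all control mice. Mbp and Mobp made up most of this sum. Taken gene by gene, the median percent of the control mean over the myelinating genes ran from 96.8 to 103.9 in control mice and was 95.6, 91.8 and 94.1 in PLDP mice 17, 22 and 26, so by this measure PLDP mouse 17 was also below the control mice, by a small margin. Over all stages together its median lay among the control mice, just above control mouse 10 (96.9), and over the other myelinating genes it also lay among them (98.0 to 102.7 in control mice). In PLDP mouse 17, 13 myelinating genes were below all control mice and 7 above them. The precursor genes summed to 50.1, 51.3 and 51.6 CPM in control mice and 49.7, 55.3 and 54.4 in PLDP mice. The higher precursor sums of PLDP mice 22 and 26 came from Pdgfra, since Cspg4 lay within the control values in both. The median log2 fold change by stage was 0.048 for precursor, -0.11 for lineage-wide, -0.036 for newly formed and -0.096 for myelinating genes. Without control mouse 5 that of the newly formed genes was 0.058. Differences between stages were not tested.

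Genes that mark the hindbrain, a region with many myelinated tracts, differed more. Of 18 genes of a hindbrain list (Hox genes and genes of brainstem neurons), 15 were tested, 12 were lower on PLDP and 0 higher, and the median log2 fold change was -0.81. Their summed CPM was 184.1, 169.2 and 163.7 in control mice and 134.4, 89.5 and 123.9 in PLDP mice. Each PLDP mouse was below each control mouse, with PLDP mouse 22 lowest and PLDP mouse 17 highest of the 3. Among the PLDP mice the same order was seen in the summed myelinating genes, of which Mbp and Mobp were the larger part. The control mice did not share an order, with control mouse 2 highest for the hindbrain list and control mouse 5 for the myelinating sum. PLDP mouse 17 lay among the control mice in that sum, whereas Ermn, Aspa, Fgfr2, Ugt8a, Il33 and Tmem88b were lowest in PLDP mouse 17. The part of the hindbrain share of the RNA in the lower values of the oligodendrocyte genes was not tested. Of 12 forebrain markers, 1 was called higher and 0 lower, with sums of 1285 to 1395 CPM in control mice and 1389 to 1421 in PLDP mice. Summed CPM ran from 7824 to 8049 over the 6 mice for neuron markers and from 4450 to 4599 for astrocyte markers, with the diets overlapping. Of 11 neuron markers tested 1 was called lower (Nefl, a neurofilament subunit) and 0 higher. Microglia markers summed to 360.5, 375.0 and 359.2 CPM in control mice and 362.5, 348.1 and 351.4 in PLDP mice, so PLDP mice 22 and 26 were below all control mice here too. Of 9 microglia markers tested 1 was called lower and 0 higher. Of 8 endothelial markers 2 were called higher (Flt1 and Pecam1), with sums of 236.0, 239.7 and 235.0 CPM in control mice and 254.2, 242.5 and 234.4 in PLDP mice. The part of these cell types in the oligodendrocyte results was not tested.

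**Figure D4:**
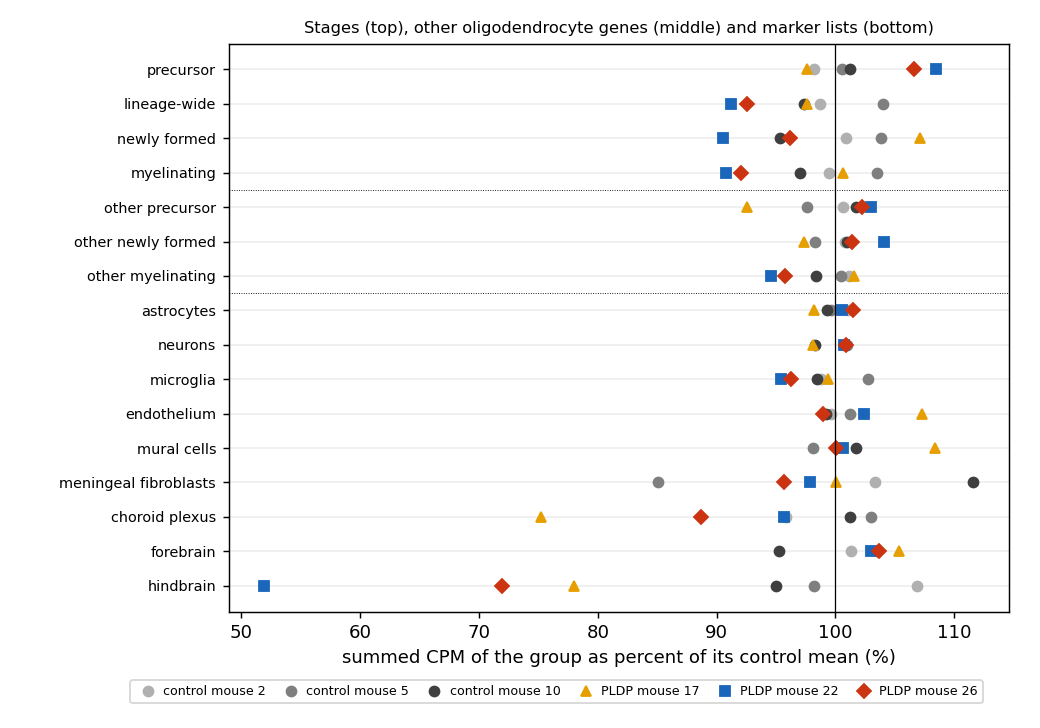
Summed CPM of each stage, of other oligodendrocyte genes and of marker lists is given for each mouse as a percent of the control mean of that group (horizontal axis). The hindbrain list lies below 80% in all 3 PLDP mice, and the summed myelinating genes, of which Mbp and Mobp are the larger part, lie below all control mice in PLDP mice 22 and 26 and among them in PLDP mouse 17.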

How the data were processed

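RNA-seq libraries of whole brains were made for 3 control and 3 PLDP mice. The authors deposited raw read counts per gene, 1 file per mouse, and all value columns were used. Their processing notes name cutadapt 2.9, HISAT2 2.2.0, featureCounts 2.6.0 and DESeq2 1.6.3 and the builds GRCm38 and GRCh38, without roles. The libraries were made with a stranded mRNA kit (TruSeq), but the strand setting used in counting and the annotation are not given in the sources used here, so overlapping genes may share or lose reads. Symbols, positions and exon lengths were taken by Ensembl identifier from GENCODE M21 (GRCm38), in which 54777 of 55034 identifiers were found. The 5320 numbered features without an Ensembl identifier stayed in the fits.

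The main test was edgeR 4.0.16's quasi-likelihood test (glmQLFit, then glmQLFTest) in R 4.3.3 on the deposited counts, with TMM scaling, no covariate beside diet, and the filterByExpr rule (minimum count 10, minimum total 15). Calls used an unadjusted p under 0.05, with Benjamini-Hochberg values over all 18580 features. Intervals are 95% intervals of the fit. The script was run on simulated counts in which some genes changed 2-fold. That run does not tell how well changes as small as those seen here are detected. Totals of 18797061 to 23938729 counts limit genes with few counts, such as Carns1. The alternatives were 2 other filters, 3 other scalings, DESeq2 1.42.0, limma 3.58.1 voom, and leaving out each mouse. Tables and plots used Python 3.11.15, pandas 2.3.3 and matplotlib 3.10.9.

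The genes, stages and lists were chosen with earlier results of these data known. All 40 genes were counted, and values per mouse were given for called genes, the 6 highest per kilobase, the 2 largest changes per stage, 12 genes fixed by name and genes below the filter. Other oligodendrocyte genes were named where called. Tubb3, on the neuron list, matched no identifier and was not analysed here.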

Additional observations from a re-analysis of the deposited data

How the results depend on the processing

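Most results kept their direction and their side of the threshold. The number of genes called lower was 14 with relative log expression factors, library size only, limma voom and a minimum of 10 counts in each mouse, 13 with upper-quartile factors, 15 with no filter on low counts and 11 with DESeq2, which called 1.95% of all features lower. Leaving out 1 mouse gave 6 (without control mouse 5, 2.72% of all features) to 17 (without PLDP mouse 17, 5.69%) lower genes. Among the genes not called at first, Sox8 was called lower without PLDP mouse 26, Fa2h without control mouse 10 and Olig1 without PLDP mouse 17. The number called higher was 1 with no filter, where 1314 of all 36099 features were called higher. It was between 0 and 1 when 1 mouse was left out, the gene being Gpr17, or Pdgfra without PLDP mouse 17 (1293 of 18848 features). The median log2 fold change over the lineage-wide genes was between -0.168 and -0.081 when 1 mouse was left out, and that over the newly formed genes between -0.07 and 0.07. Adjusted p under 0.05 was reached by Mbp with no filter, and by Mbp and Car2 without PLDP mouse 17. Genes with values near 0 changed sign. Gal3st1 had -0.0025 with no filter and -0.0013 with library size only, and Gjb1 had 0.00050 with at least 10 counts in every mouse and 0.0061 with upper-quartile factors. When 1 mouse was left out, the log2 fold change ran from -0.054 to 0.043 for Apod, -0.050 to 0.076 for Cspg4, -0.11 to 0.067 for Enpp6, -0.080 to 0.050 for Gal3st1, -0.12 to 0.071 for Gjb1, -0.071 to 0.021 for Mag, -0.075 to 0.021 for Mobp, -0.068 to 0.079 for Ppp1r14a and -0.0088 to 0.039 for Trf. The cause was not tested. No paired analysis was possible because the mice of the 2 diets share no replicate numbers. Depth limits genes of a few CPM, whose intervals reach 0.2 or more on the log2 scale to each side.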
